A study of Mus musculus with 32 samples.

Results

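Potassium channel genes were taken as all genes whose symbol starts with Kcn, apart from Kcne2 and Kcnj13, which were left out. The array held 95 such genes, on 130 probes, among 20832 genes that could be named. Of the 95 genes, 67 (78 probes) reached a mean processed signal of 100 in at least 1 dye in at least 1 hypoxia-ischemia (HI) group. These 67 are the genes described below. In all 8 HI groups 45 genes reached this signal, and 22 did so in some groups. The other 28 genes stayed under it in every group, among them Kcna10, Kcnab2, Kcne1, Kcne4, Kcng3, Kcng4, Kcnh1, Kcnh6, Kcnh7, Kcnh8, Kcnj1, Kcnj14, Kcnj15, Kcnj2, Kcnj3, Kcnj6, Kcnk18, Kcnk5, Kcnk7, Kcnk9, Kcnmb1, Kcnmb3, Kcnn1, Kcnn3, Kcnn4, Kcnq1 and Kcnv2. Just above the minimum lay Kcna2, Kcnh5 and Kcnq3, with highest group signals of 113, 122 and 128. Just under it lay Kcnn3, Kcnj3 and Kcnh8, with 98.5, 93 and 92.

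The study examined how the forebrain hemisphere of Naval Medical Research Institute (NMRI) mice, an outbred strain, responds to HI at postnatal day 5 (P5) or day 10 (P10), the day of birth being counted as day 1. The right carotid was permanently ligatured, and after 1 h with the mother the pups breathed 8% oxygen for 40 min. Hemispheres were collected 3, 6, 12 or 24 h later beside untreated (naive) littermates, and each of the 24 two-colour arrays set an HI pool, labelled with Cy5, against a naive pool, labelled with Cy3, with 3 arrays in each of the 8 groups and 6 animals in a pool. A further 8 arrays carried naive pools only, 4 at P2 and 4 at P15. The HI labels were never swapped between dyes, and a pool of 6 animals hides the spread between animals. The arrays lay on 8 slides and no slide held both P5 and P10, so that age and slide cannot be told apart where these ages are compared. Between 58.6 and 85.1% of probes stood well above background in Cy3, and between 63 and 91.9% in Cy5, on the 24 HI arrays. The P10 12 h replicate 1 array gave the upper value of both ranges, the other P10 arrays reaching at most 70.7 and 79.5%. The hemisphere is a mixture of cells, so that fewer cells of one type and less RNA per cell cannot be told apart in any ratio given here.

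Potassium channels let potassium leave or enter cells, set the resting potential and end the action potential. Voltage-gated pore subunits (Kcna, Kcnb, Kcnc, Kcnd, Kcnh, Kcnq) open on depolarization. Silent subunits (Kcnf, Kcng, Kcns, Kcnv) make no channel alone but join the Kcnb subunits and alter their gating. Inward rectifiers (Kcnj) and two-pore channels (Kcnk) act near rest, and glial inward rectifiers take up the potassium that neurons release. Auxiliary proteins (Kcnab, Kcne, Kcnip, Kcnmb) tune the pore-forming subunits.

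Of the 67 genes, 20 changed after HI in at least 1 group. Of these, 16 were lower and 4 were higher, no gene being called in both directions, and 47 genes were not called in any group. Over the whole array, 15.5% of the genes tested in at least 1 group were called lower in some group, 16.6% higher and 31.1% in either direction, so that the 20 of 67 (29.9%) lie near the share of all genes, with 23.9% lower and 5.97% higher. At P5, 9 genes were lower and 1 was higher (3.18 and 5.68% of all genes, or 8.82% in either direction), while at P10 10 were lower and 4 were higher (15 and 16.4% of all genes, or 30.5% in either direction). Kcns3, Kcnv1 and Kcnab1 were lower at both ages, and Kcna4 was higher at both. With a dye bias estimated on the naive arrays taken out, all Kcna4 calls were lost, at 0.18 (P5 12 h), 0.28 (P10 6 h) and 0.16 (P10 12 h). The P5 12 h call of Kcnab1 was also lost, at -0.57. The steepest fall was that of Kcns3 3 h after HI, 2.28-fold at P5 and 2.39-fold at P10, and the steepest called rise was that of Kcne3 at P10 3 h, 3.86-fold on its brightest probe. These sizes depend on the background correction: with normexp and loess the log2 ratios were -0.63 and -0.36 in place of -1.19 and -1.26 for Kcns3, and 0.71 in place of 1.95 for Kcne3. In the P5 groups Kcne3 stayed under the signal minimum, so that no rise could be called there. Calls come from limma, with Benjamini-Hochberg adjustment over all probes tested in the group, and need at least 1 probe that changed over 1.5-fold with an adjusted p below 0.05. Values are log2 ratios of HI over naive signal on the gene's brightest probe, a negative value being a lower level after HI, and means are given ± SD with n = 3 arrays unless stated.

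Counted group by group, 1, 3, 9 and 1 genes were lower at P5 3, 6, 12 and 24 h, of 57, 57, 57 and 56 tested, where 0.58, 1.2, 1.94 and 0.406% of all tested genes on the array were lower. By limma 0, 0, 1 and 0 were higher, beside 2.24, 2.85, 3.64 and 1.92% of all genes. At an unadjusted p under 0.05, 1, 3, 1 and 1 were higher and 4, 16, 26 and 13 were lower. The share of all genes at this looser limit was not counted, so these counts cannot be set against it. In P10 hemispheres, 1, 5, 7 and 3 genes were lower at 3, 6, 12 and 24 h, of 52, 56, 60 and 52 tested, beside 1.7, 7.39, 4.61 and 7.25% of all genes. Those higher were 2, 4, 2 and 0, beside 4.25, 7.61, 6.68 and 11.8%. At an unadjusted p under 0.05, 13, 11, 7 and 8 were higher and 5, 14, 16 and 15 lower at P10, again with no share of all genes counted. In both directions together, the shares of all genes called were 2.82, 4.05, 5.58 and 2.33% for P5 hemispheres, with 5.95, 15, 11.3 and 18.9% for P10 ones. Among the 8 groups, the share of potassium channel genes called stood furthest above that of all genes at P5 12 h and furthest below it at P10 24 h. Single arrays weighed on these counts: without replicate 1 the P5 3 h count was 2 and the P5 6 h count 5, without replicate 2 the P10 12 h count was 16, and without replicates 2 and 3 in turn the P10 24 h count was 7 and 11. The single call at P5 24 h was lost without any 1 array of its group. With each group fitted alone, 2 genes were called at P10 12 h and 0 at P10 24 h. Of the 41 called pairs of a probe and a group, 39 had all 3 arrays on the same side of 0. A call already needs a mean change over 1.5-fold on these arrays, so this agreement was largely set by the choice of pairs. Taking out a dye bias estimated on the naive arrays kept 30 of the 39 called pairs of a gene and a group. Normexp background correction and loess, whose offset pulls the ratios of dim probes towards 0, kept 11 of 39 and made 28 of the 41 called probe values over 1.5 times smaller. The pairs it kept were of Kcna4, Kcnab1, Kcne3, Kcng1, Kcns3 and Kcnv1, so that every call of the other genes was lost. All 41 kept their sign under both settings, which says little, since values chosen for their size seldom cross 0.

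**Figure D1:**
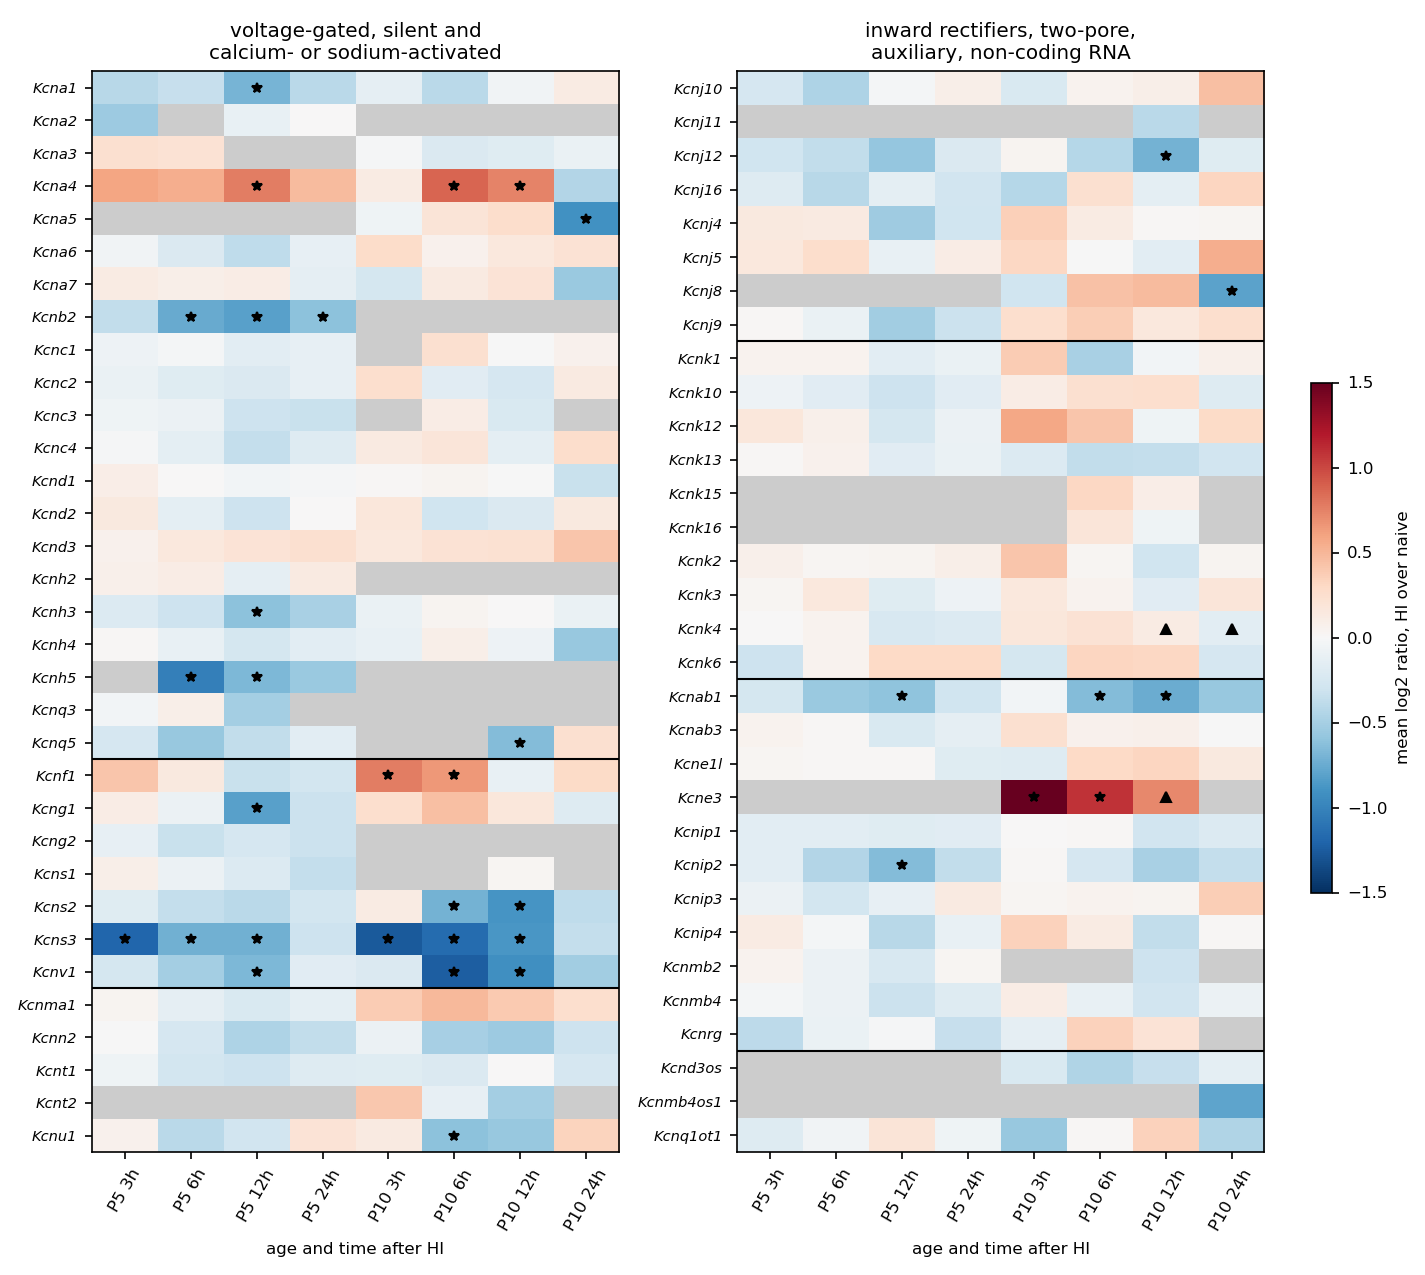
Mean log2 ratio of HI over naive signal (colour) for 65 potassium channel genes (rows, grouped by class) in the 8 groups of age and hours after HI (columns), 3 arrays each, on the brightest probe. Grey marks a group under the signal minimum, a star a called gene and a triangle a gene called on another probe, and the column for P5 12 h shows mostly lower values.

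The P5 hemisphere 12 h after HI was where most potassium channel genes had lower values than in naive hemispheres. Of 57 tested genes, 50 (87.7%) had a ratio below 0, against 54.6% of all tested genes. Their median log2 ratio was -0.26, with quartiles of -0.42 and -0.14, while the median of all genes was -0.03. The medians on the 3 arrays were -0.33, -0.29 and -0.24, each below the median of all genes on the same array, which lay between -0.04 and -0.02. In all, 9 of 57 (15.8%) were called lower, beside 1.94% of all genes. At 6 h the median was -0.10 beside -0.03 for all genes. At 24 h it was -0.16, with array medians of -0.26, -0.19 and -0.00229, so that the replicate 3 array showed almost none of it. At P10 the medians were 0.09, 0.06, -0.05 and -0.05 at 3, 6, 12 and 24 h, beside 0.01, -0.01, -0.01 and 0.04 for all genes. The P5 12 h median stayed between -0.29 and -0.24 when any array was left out, and was -0.16 with normexp and loess. The count of 10 called genes was 6, 7 and 5 without replicate 1, 2 and 3 of that group. Each of these counts includes genes that were not among the 10. Without replicate 1 only Kcna1, Kcnip2 and Kcns3 of the 10 stayed called, and only Kcna1 and Kcns3 did so whichever of the 3 arrays was left out.

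**Figure D2:**
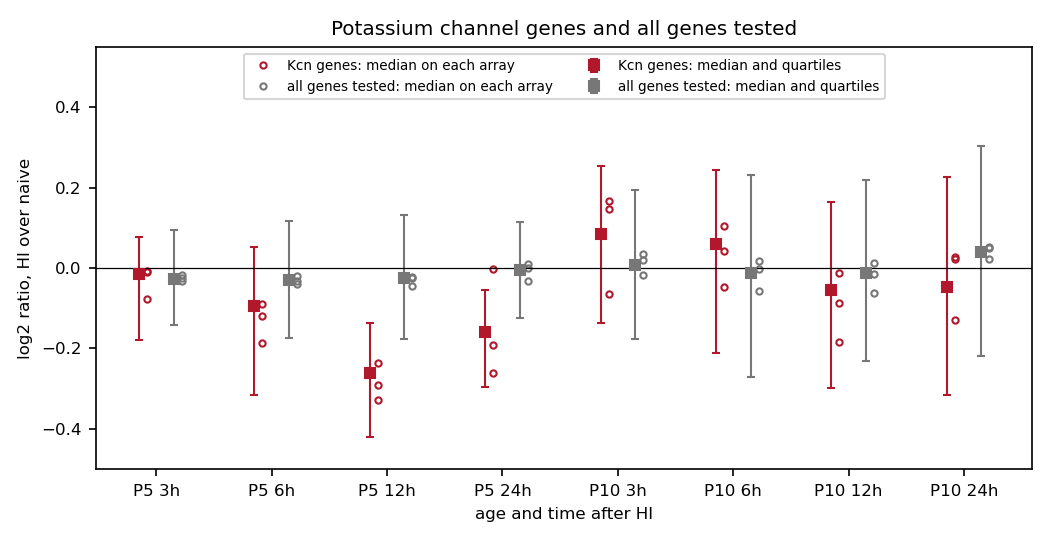
Median and quartiles of the log2 ratio of HI over naive signal in each group (x axis: age and hours after HI), for tested potassium channel genes and for all tested genes, with small points for the median on each of the 3 arrays. At P5 12 h all 3 array medians of the potassium channel genes lie between -0.33 and -0.24, below those of all genes.

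By class, the P5 12 h medians were -0.41 for the silent subunits, -0.33 for inward rectifiers, -0.31 for voltage-gated pore subunits, -0.30 for calcium- or sodium-activated channels, -0.24 for auxiliary subunits and -0.18 for two-pore channels. Over all groups, 4 of 7 silent subunits, 6 of 23 voltage-gated pore subunits, 2 of 11 auxiliary subunits, 2 of 8 inward rectifiers, 1 of 5 calcium- or sodium-activated channels and 1 of 10 two-pore channels were called lower, beside the 15.5% of all genes. Among these small classes the silent subunits lay furthest from that share, and no test of the classes was made. The two-pore gene counted was Kcnk4, called on its second probe but not on its brightest one.

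Silent subunits held the lowest class median at P5 12 h and P10 6 h, but not in every group: their median at P10 3 h was 0.12, and at P10 12 h that of the calcium- or sodium-activated channels was -0.51. Kcns3 was lower at both ages from 3 h, Kcnv1 and Kcns2 were lower at P10 6 and 12 h, and Kcng1 was lower at P5 12 h. Kcnf1 went the other way at P10. At P10 6 h the median of the 5 tested silent subunits was -0.71, with 3 lower, and at P10 12 h that of 6 was -0.50, with 3 lower.

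Kcns3 encodes a silent subunit that slows the closing of its Kcnb partners. At 3 h after HI its log2 ratios were -0.86, -1.21 and -1.49 at P5 and -1.35, -1.05 and -1.37 at P10. All 6 arrays were far below 0 and the ages overlapped. The means were -1.19 ± 0.32 (adjusted p = 2.3e-05) and -1.26 ± 0.18 (adjusted p = 8.4e-06), the signal going from 145 to 63.9 at P5 and from 152 to 63.5 at P10. At P5 the ratios then rose to -0.72 ± 0.18 at 6 h (adjusted p = 0.0023), -0.72 ± 0.13 at 12 h (adjusted p = 0.002) and -0.31 ± 0.17 at 24 h (adjusted p = 0.21). The course at P10 was -1.15 ± 0.43 at 6 h (adjusted p = 6.8e-06), -0.88 ± 0.15 at 12 h (adjusted p = 0.00016) and -0.36 ± 0.30 at 24 h (adjusted p = 0.041, under 1.5-fold). On these processed signals Kcns3 was lowest at 3 h and nearest to the naive level at 24 h. Taking out the dye bias ended its P5 6 and 12 h calls, at -0.48 and -0.49. With normexp and loess only the P5 3 h call was kept, and the P10 values were -0.36, -0.41 and -0.44 at 3, 6 and 12 h, so that 3 h was no longer the lowest of these times at P10.

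The upstream sequences of Kcns3 and Kcne3 are shown because these were the genes with the largest early fall and the largest early rise. They are the 250 bases before the annotated transcript starts in RefSeq (GRCm38.p6), 5′ to 3′ on the strand of the gene, and capitals mark ACGTG, a core of the hypoxia response element, searched on both strands (ACGTG or CACGT).
Kcns3 start 1 (chr12:11150374-11150623, minus strand): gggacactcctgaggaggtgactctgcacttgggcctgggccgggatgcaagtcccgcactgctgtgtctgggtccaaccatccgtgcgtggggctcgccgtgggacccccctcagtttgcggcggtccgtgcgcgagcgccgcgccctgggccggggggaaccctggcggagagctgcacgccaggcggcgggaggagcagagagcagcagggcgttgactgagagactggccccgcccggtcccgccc
Kcns3 start 2 (chr12:11150843-11151092, minus strand): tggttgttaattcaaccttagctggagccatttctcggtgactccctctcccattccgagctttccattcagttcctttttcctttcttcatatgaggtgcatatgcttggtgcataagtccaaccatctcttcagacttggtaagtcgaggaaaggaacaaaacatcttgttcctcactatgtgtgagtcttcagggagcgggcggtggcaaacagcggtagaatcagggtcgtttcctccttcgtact
Kcne3 start 1 (chr7:100176420-100176669, plus strand): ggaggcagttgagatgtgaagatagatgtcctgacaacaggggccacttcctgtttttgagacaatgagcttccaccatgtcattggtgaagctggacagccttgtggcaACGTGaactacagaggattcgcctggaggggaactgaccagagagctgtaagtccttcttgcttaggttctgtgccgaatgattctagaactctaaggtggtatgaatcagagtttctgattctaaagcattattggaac
Kcne3 start 2 (chr7:100178433-100178682, plus strand): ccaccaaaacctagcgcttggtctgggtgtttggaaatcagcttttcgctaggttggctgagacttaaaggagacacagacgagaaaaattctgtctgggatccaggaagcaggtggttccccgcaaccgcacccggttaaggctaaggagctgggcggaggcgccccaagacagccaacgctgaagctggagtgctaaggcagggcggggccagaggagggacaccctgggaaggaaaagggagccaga
Of all 32851 such windows 16.6% held the motif on either strand, as did 6 of the 67 windows found for 47 of the potassium channel genes. Kcne3 held it once, before start 1, and neither window of Kcns3 held it. Among the called genes with a window, 1 of 3 higher and 1 of 9 lower genes held it, the latter being Kcnab1. A match of 5 letters is a description of the sequence and not a binding site.

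Kcnv1, a silent subunit that damps Kcnb currents, gave log2 ratios of -1.71, -0.85 and -1.15 at P10 6 h and of -1.17, -0.33 and -1.24 at P10 12 h. Each array was below 0, and replicate 2 was nearest to 0 at both times. The means were -1.24 ± 0.43 (adjusted p = 4.7e-05) and -0.92 ± 0.50 (adjusted p = 0.0011). At P5 12 h the ratios were -0.48, -0.73 and -0.81, with a mean of -0.67 ± 0.17 (adjusted p = 0.018), a call that was lost without any 1 of the 3 arrays (adjusted p = 0.0532, 0.0922 and 0.127 without replicate 1, 2 and 3). Kcns2, a silent subunit related to Kcns3, had ratios of -1.46, -0.54 and -0.13 at P10 6 h and of -1.10, -0.44 and -1.13 at 12 h. The 6 h arrays spread widely, and without replicate 1 the mean of -0.71 ± 0.68 (adjusted p = 0.0053) became -0.33 (adjusted p = 0.155). The 12 h mean of -0.89 ± 0.39 (adjusted p = 0.0014) stayed called without any 1 array of that group. It lost its call with the group fitted alone (limma, adjusted p = 0.0635) and with normexp and loess (-0.42).

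Kcng1, a silent subunit that also pairs with Kcnb channels, was lower at P5 12 h alone. Its ratios there were -1.23, -0.70 and -0.50, whereas at P10 12 h they were -0.04, -0.04 and 0.58. The ages did not overlap. The P5 mean was -0.81 ± 0.38 (adjusted p = 0.0048) and lost its call without replicate 1 (-0.60, adjusted p = 0.0939). The P10 minus P5 difference at 12 h was 0.98 ± 0.26 (SE, adjusted p = 0.039), beside 1.76% of all genes called for a difference at this time. This call was lost without replicate 1 or 2 of P5 12 h and without replicate 1 or 3 of P10 12 h. Naive signals of this probe also differed between the ages, at 727 for P5 12 h and 134 for P10 12 h.

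Kcnf1, another silent subunit, was higher at P10 3 and 6 h. The arrays gave 0.49, 1.06 and 0.74 at 3 h and -0.02, 1.32 and 0.64 at 6 h. One array of the latter showed no rise. The means were 0.77 ± 0.29 (adjusted p = 0.011) and 0.65 ± 0.67 (adjusted p = 0.017). Without replicate 2 these were 0.62 (adjusted p = 0.121) and 0.31 (adjusted p = 0.297), and without replicate 3 they were 0.78 (adjusted p = 0.0508) and 0.65 (adjusted p = 0.0625), all 4 values losing the call. The second Kcnf1 probe, under the signal minimum, gave 0.49 and 0.25.

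**Figure D3:**
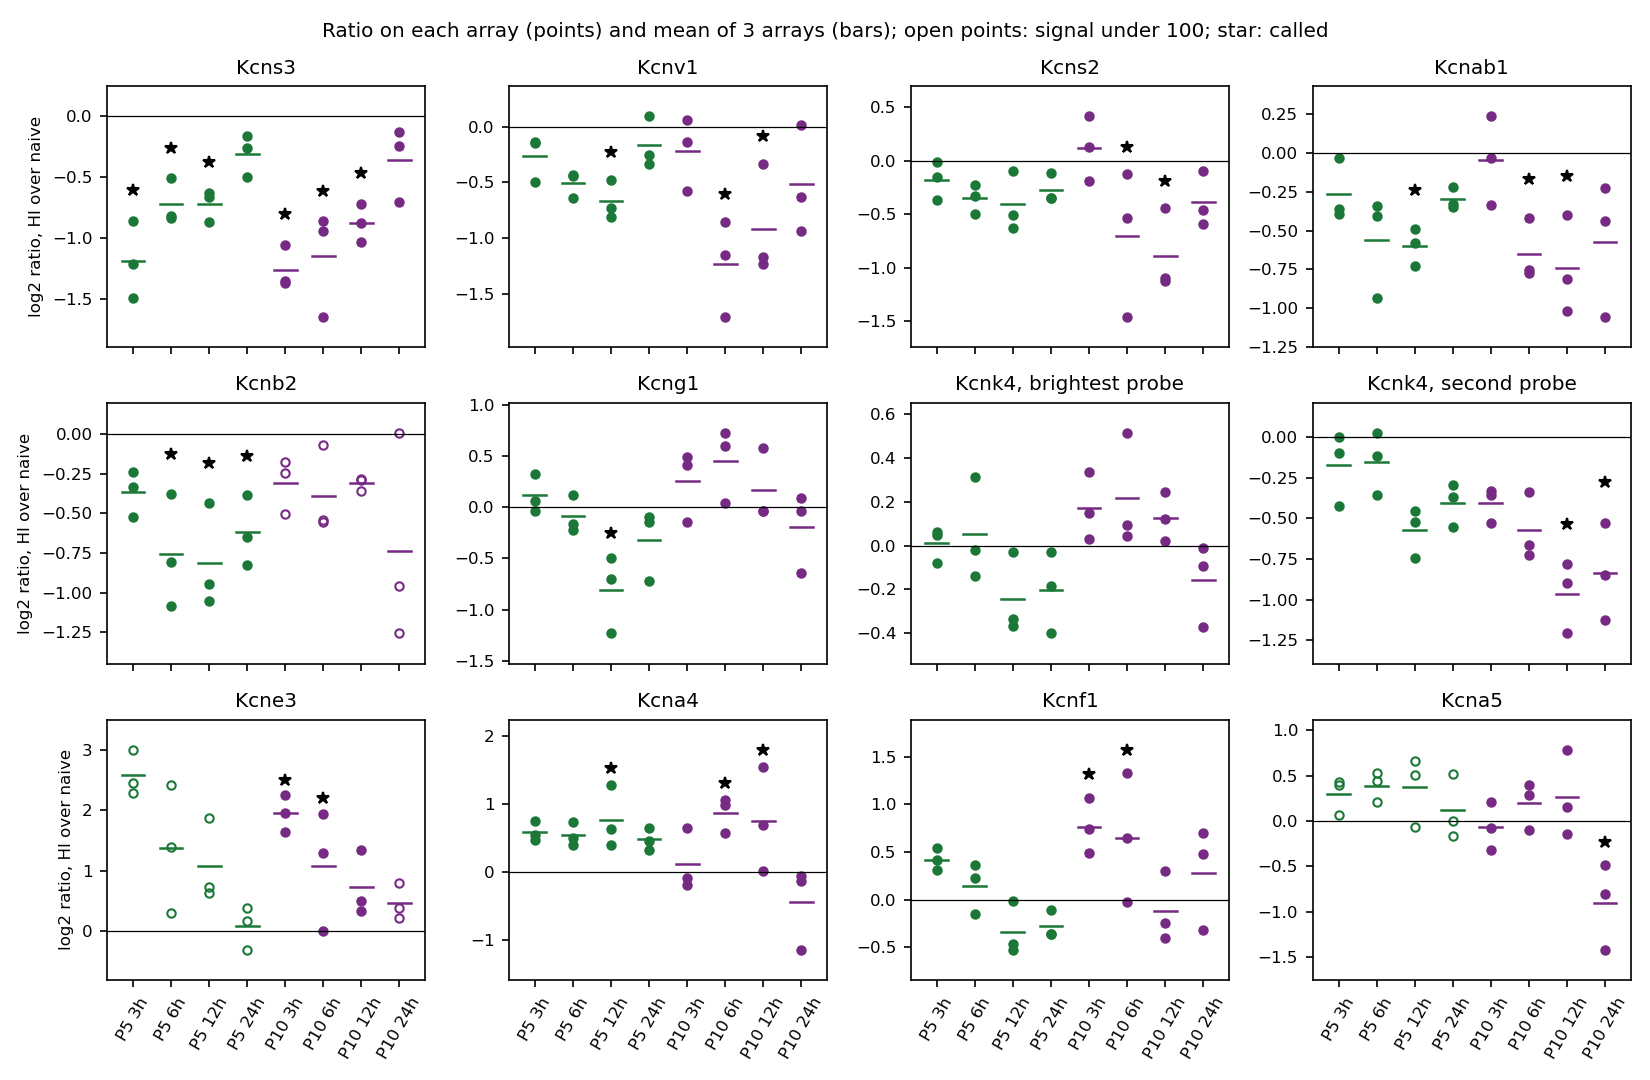
Log2 ratio of HI over naive signal on each array (points) and group means (bars) for 12 probes of called potassium channel genes, by hours after HI, P5 in green and P10 in purple. Open points mark groups under the signal minimum and stars called groups, and the Kcns3 points at 3 h lie between -1.49 and -0.86 at both ages.

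Among voltage-gated pore subunits, 6 were lower and 2 were higher in at least 1 group. The lower ones were Kcnb2, Kcna1, Kcnh3 and Kcnh5 at P5, and Kcnq5 and Kcna5 at P10. Kcna4 was among the higher ones.

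Kcnb2 encodes a delayed rectifier subunit, a partner of the silent subunits. Its ratios were -0.81, -1.09 and -0.38 at P5 6 h, -1.05, -0.44 and -0.95 at 12 h, and -0.82, -0.65 and -0.39 at 24 h. All 9 arrays were below 0. The means were -0.76 ± 0.36 (adjusted p = 0.0081), -0.81 ± 0.33 (adjusted p = 0.0046) and -0.62 ± 0.22 (adjusted p = 0.045), and its P10 groups were under the signal minimum. When tested on all probes well above background, Kcnb2 was also lower at P10 24 h, at -0.74 (adjusted p = 0.0046), with ratios of -1.26, -0.96 and 0.01. Under that setting its P5 24 h call was lost, as it was with the dye bias taken out, at -0.47. With normexp and loess all P5 calls were lost, at -0.371, -0.325 and -0.18 at 6, 12 and 24 h. The 6 h call was lost without replicate 1 (adjusted p = 0.0579), the 12 h call without replicate 1 (adjusted p = 0.0669) or 3 (adjusted p = 0.0513), and the 24 h call without any 1 array (adjusted p = 0.0833 to 0.296). As its adjusted p lay so near the limit, the 24 h call was also lost without several arrays of other groups, which share the estimate of the spread. Kcnb2 also fell under the signal minimum without replicate 2 at 6 h.

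Kcna1, a low-threshold subunit of axons, gave -0.82, -0.53 and -0.74 at P5 12 h. Its mean of -0.69 ± 0.15 (adjusted p = 0.0034) stayed called without any 1 array of that group. With normexp and loess the call was lost, at -0.56. Kcnh3 gave -0.69, -0.65 and -0.50 at the same time, with a mean of -0.61 ± 0.10 (adjusted p = 0.0059) that lost its call without replicate 1 (-0.57, adjusted p = 0.0589). This Kcnh3 call was also lost with the dye bias taken out (-0.545) and with normexp and loess (-0.578). Both are neuronal subunits, and each was below 0 on all arrays. Kcnh5, of the same family as Kcnh3, gave -0.40, -1.32 and -1.33 at P5 6 h, where the signal went from 108 to 55.2. The mean was -1.02 ± 0.53 (adjusted p = 0.0053), without replicate 3 the call was lost (adjusted p = 0.0666), and without replicate 2 the probe fell under the signal minimum. At 12 h Kcnh5 stood at -0.67 ± 0.17 (adjusted p = 0.048), a call lost without any 1 array (adjusted p = 0.101 to 0.236) and also without several arrays of other groups.

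Kcna4, an inactivating A-type subunit, was the higher gene at both ages. Its ratios were 0.40, 0.63 and 1.28 at P5 12 h, 0.99, 0.57 and 1.06 at P10 6 h, and 1.55, 0.01 and 0.69 at P10 12 h. No array was below 0, but the spread was wide. The means were 0.77 ± 0.46 (adjusted p = 0.032), 0.87 ± 0.27 (adjusted p = 0.0066) and 0.75 ± 0.77 (adjusted p = 0.02). With the dye bias of this probe taken out they were 0.18, 0.28 and 0.16, and all 3 calls were lost. At P10 24 h the ratio was -0.44, and -1.03 (adjusted p = 0.0018) with the dye bias taken out. Leaving out replicate 3 gave 0.52 (adjusted p = 0.291) at P5 12 h and 0.78 (adjusted p = 0.0517) at P10 6 h, and leaving out replicate 1 gave 0.35 (adjusted p = 0.349) at P10 12 h. The P5 12 h call was also lost without replicate 1 or 2 (adjusted p = 0.0549 and 0.0844), and the P10 12 h call without replicate 3 (adjusted p = 0.0803).

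Kcna5, a delayed rectifier subunit, was lower at P10 24 h, with ratios of -1.43, -0.80 and -0.48. Its mean was -0.90 ± 0.48 (adjusted p = 0.00091). The naive signal of its probe was 351 at P10, against 48, 44.1 and 55.2 at P2, P5 and P15, and only the P10 groups passed the signal minimum. Kcnq5, a subunit of the neuronal M-current, was lower at P10 12 h, with -1.05, -0.37 and -0.53. Replicate 1, the array with the widest share of probes above background, was the lowest, and the mean of -0.65 ± 0.35 (adjusted p = 0.00096) became -0.45 without it, under 1.5-fold.

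Among auxiliary subunits, Kcnab1 and Kcnip2 were lower and Kcne3 was higher. Kcnab1 encodes a beta subunit that makes Kcna channels inactivate. Its ratios were -0.58, -0.49 and -0.73 at P5 12 h, -0.75, -0.77 and -0.42 at P10 6 h, and -0.81, -0.40 and -1.02 at P10 12 h. Every array was below 0 and the ages overlapped. The means were -0.60 ± 0.12 (adjusted p = 0.0096), -0.65 ± 0.19 (adjusted p = 0.002) and -0.74 ± 0.32 (adjusted p = 0.00094). At P5 12 h the call was lost without replicate 1 (adjusted p = 0.0589) or 3 (adjusted p = 0.089). Kcnip2, a calcium sensor that binds Kcnd channels, gave -0.37, -0.73 and -0.85 at P5 12 h, with a mean of -0.65 ± 0.25 (adjusted p = 0.0074) that lost its call without replicate 2 (adjusted p = 0.0545) or 3 (adjusted p = 0.0874).

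Kcne3 encodes a single-span subunit that alters the gating of several voltage-gated pores. Both of its probes rose at P10. On the brightest probe the ratios were 2.25, 1.64 and 1.96 at 3 h and 1.95, 1.29 and -0.00429 at 6 h. On this probe all arrays were high at 3 h, and replicate 3 stood at the naive level at 6 h. The means were 1.95 ± 0.31 (adjusted p = 0.0006), the signal going from 50.1 to 197, and 1.08 ± 0.99 (adjusted p = 0.018), which became 0.64 (adjusted p = 0.229) without replicate 1 and 0.97 (adjusted p = 0.0998) without replicate 2. The second probe gave 2.27 ± 0.47 (adjusted p = 0.00024) at 3 h, 1.73 ± 0.96 (adjusted p = 0.001) at 6 h and 1.13 ± 0.16 (adjusted p = 0.023) at 12 h. This last call was lost without replicate 2 (adjusted p = 0.0832) or 3 (adjusted p = 0.0756), and without replicate 1 the probe was under the signal minimum. At 6 h the mean of the second probe was 2.27 without replicate 3, in place of 1.73. With normexp and loess the 3 h values were 0.71 and 0.78 on the 2 probes, both still called, and the call of the brightest probe at 6 h was lost at 0.57. At P5 3 h the HI signal of the brightest probe was 67.6, 90.8 and 137 on the arrays, against naive signals of 13.9, 11.3 and 24.9. The HI signal was well above background on all 3 arrays but the naive signal on 1 of 3, so that these ratios have no fixed size and are not ranked against P10. When tested on all probes well above background, the rise passed at P5 3 h, where the adjusted p was 0.0002, and at P5 6 h, where it was 0.02, with the same limit on its size.

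Fewer of the remaining channels moved. Kcnu1, a calcium-activated family member known from sperm, was lower at P10 6 h, with -0.92, -0.42 and -0.50 on the arrays. Its mean of -0.61 ± 0.27 (adjusted p = 0.001) was -0.46 without replicate 1. Kcnj12, a strong inward rectifier, gave -0.86, -0.15 and -1.10 at P10 12 h, a mean of -0.71 ± 0.50 (adjusted p = 0.0022) that lost its call without replicate 3 (-0.51, adjusted p = 0.062). Both were below 0 on each array. Kcnj8, the pore of vascular ATP-sensitive channels, gave -1.26, -1.06 and -0.08 at P10 24 h. Replicate 3 was near 0, and the mean was -0.80 ± 0.63 (adjusted p = 0.004). Without replicate 1 this probe fell under the signal minimum. Among 5 endothelial and pericyte markers at P10 24 h, Pdgfrb was higher at 2.37 and Flt1 was lower at -0.75, and the log2 ratio of their summed signal ran from -0.48 to 0.33 over the arrays. The part of these cells in the Kcnj8 value was not tested.

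Kcnk4, a mechanosensitive two-pore channel, gave differing readings on its 2 probes. On the second probe the ratios were -0.90, -0.78 and -1.21 at P10 12 h and -1.13, -0.53 and -0.85 at 24 h. On the brightest probe they were 0.24, 0.02 and 0.12 at 12 h. The probes did not overlap at 12 h. The second probe was called at both times, with means of -0.96 ± 0.22 (adjusted p = 1.1e-05) and -0.83 ± 0.30 (adjusted p = 2.7e-05), whereas the brightest stood at 0.13 ± 0.11 and -0.16 ± 0.19. Both carry the same RefSeq transcript in the array's annotation, and the 1.09 log2 gap between them at P10 12 h was the widest among the 9 genes with several probes over the signal minimum in the same group.

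The P10 minus P5 difference was tested on 47, 49, 51 and 47 potassium channel genes at 3, 6, 12 and 24 h. Kcng1 at 12 h was the only call by limma, with 0 at the other times, where 0.141, 4.63 and 4.57% of all genes were called. With the slide as a random block the count was 1 at 6 h, and it was 2, 1, 1 and 1 at 6 h without P5 6 h replicate 1, P10 6 h replicate 3, P10 12 h replicate 2 and P10 24 h replicate 3. At 24 h it was 1 without P5 replicate 3 and 2 without P10 replicate 3. At an unadjusted p under 0.05, 2 genes were higher at 3 h, 7 were higher and 6 lower at 6 h, 11 were higher at 12 h, and 11 were higher and 4 lower at 24 h. The share of all genes at this limit was not counted. A further 5 genes passed the adjusted p but not the 1.5-fold limit. These were Kcnj10 at 6 h (0.52, adjusted p = 0.021), Kcna6 and Kcnj4 at 12 h (0.53 and 0.55, adjusted p = 0.037 and 0.047), and Kcnj5 and Kcnh4 at 24 h (0.42 and -0.41, adjusted p = 0.041 and 0.039). Kcna5, Kcnb2, Kcne3, Kcnh5 and Kcnj8 could not be tested for a difference, since their probes were under the signal minimum at the other age. Kcnk4 was counted on its brightest probe, which is not the called one. The other genes called at 1 age, apart from Kcng1, were tested but not shown to differ between the ages.

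Genes that bind potassium channels or carry potassium were described from a list of 30 genes, 29 of them on the array. At P5 12 h, 1 of 25 tested was lower, beside 1.94% of all genes, and the median was -0.20. That gene, Lrrc55, an auxiliary protein of the large calcium-activated channel, was lower at 5 of the 8 groups: -0.59, -0.76 and -0.68 at P5 3, 6 and 12 h, and -1.06 and -0.77 at P10 6 and 12 h. At P10 6 h, 6 of 22 were higher, beside 7.61% of all genes. Among them were the sodium pump subunits Atp1b1 (0.64) and Atp1b2 (1.07) and the cation channel Hcn3 (0.63). At P10 12 h, 3 were higher and 4 lower, beside 6.68 and 4.61% of all genes. The lower ones included the axonal proteins Lgi1 (-0.60) and Cntnap2 (-0.64). At P10 24 h, 4 were higher, beside 11.8% of all genes, among them the water channel Aqp4 (0.85). Hcn4, Lrrc26 and Lrrc52 were not well above background in most groups.

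Marker genes of the cell types of the hemisphere also moved. At P5 12 h, where the potassium channel genes were lowest, 3 of 13 neuronal markers were lower (Tubb3 -1.01, Syt1 -0.72, Slc17a7 -0.60). Of all genes, 1.94% were lower and 3.64% higher in this group. The summed signal of the neuronal markers stood at -0.53 to -0.36 over the arrays, while the median of all 13 was -0.13. At the same time all 4 erythroid markers were higher, with a summed signal at 0.31 to 1.29. Both tested neutrophil markers of 4 were higher, with a median of 2.43 and a summed signal at 1.72 to 2.57, Cxcr2 not being well above background. Of 7 astrocyte markers 1 was higher, the median being 0.32 and the summed signal 0.28 to 0.40. Of 6 microglial markers 1 was higher and 1 lower, and no oligodendrocyte, precursor, choroid plexus, or endothelial and pericyte marker was called. At P10 6 h, 4 of 13 neuronal markers were higher and 1 was lower, beside 7.61 and 7.39% of all genes. The 13 had a median of 0.26 and a summed signal at 0.35 to 0.52. The part of these shifts in the potassium channel ratios was not tested.

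In naive hemispheres, more potassium channel genes rose between P2 and P15 than fell. Of 66 tested, 21 were higher at P15 beside 12.1% of all genes, and 3 were lower beside 10.5% (limma, over 2-fold with an adjusted p below 0.001). Their median difference was 0.63 on the log2 scale, against 0.07 for all genes. By class, 3 of 5 calcium- or sodium-activated channels, 4 of 8 inward rectifiers, 3 of 7 silent subunits, 4 of 10 auxiliary subunits, 2 of 10 two-pore channels and 4 of 24 voltage-gated pore subunits were higher. Levels are the log2 Cy3 signal relative to the array's 75th percentile, on 4 pools per age.

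Kcna1 stood at -0.89, -1.07, -0.84 and -1.19 in the P2 pools and at 1.95, 2.28, 1.63 and 1.82 in the P15 pools. This axonal subunit had the steepest rise, 2.91 ± 0.29 (SE, adjusted p = 5.4e-10). Kcnj9, a G protein-gated rectifier, went from -1.98, -2.33, -2.18 and -2.28 to 0.82, 0.83, 0.32 and 0.32, a rise of 2.77 ± 0.28 (SE, adjusted p = 1.3e-09). Kcnj4, a strong rectifier of forebrain neurons, went from 1.27, 1.04, 0.70 and 0.96 to 3.54, 3.88, 3.67 and 3.61, a rise of 2.68 ± 0.31 (SE, adjusted p = 1.2e-08). Kcnj10, the main glial potassium uptake channel, went from 1.61, 1.47, 1.64 and 1.79 to 4.23, 4.08, 3.85 and 3.93. The ages did not overlap for any of these genes, which was largely set by choosing the steepest called ones. Next came Kcnab1 (2.11), Kcnab3 (1.89), the glial rectifier Kcnj16 (1.88), the sodium-activated channels Kcnt1 (1.85) and Kcnt2 (1.84) and the silent subunit Kcnv1 (1.67). With normexp and quantile normalization the Kcnt2 call was lost at 0.36, and Kcnj9, Kcnab3, Kcnj16 and Kcnt1 stayed called at 1.71, 1.03, 1.21 and 1.10.

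Kcnrg, a cytoplasmic protein that hinders assembly of voltage-gated channels, fell from -2.06, -1.93, -2.01 and -2.04 at P2 to -4.85, -4.14, -4.72 and -4.96 at P15. Kcnk10, a two-pore channel opened by stretch and lipids, fell from 2.21, 2.02, 1.56 and 1.57 to -0.69, -0.43, -0.75 and -0.95. Neither gene overlapped between the ages, which was again largely set by choosing the steepest called ones. The differences were -2.66 ± 0.31 and -2.54 ± 0.33 (SE, adjusted p = 2.3e-08 and 1.6e-07). Kcnh8, under the signal minimum in the HI groups, was the other lower gene, at -1.81. With normexp and quantile normalization the Kcnrg and Kcnh8 calls were lost, at -0.87 and -0.38, and Kcnk10 stayed lower at -2.01.

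**Figure D4:**
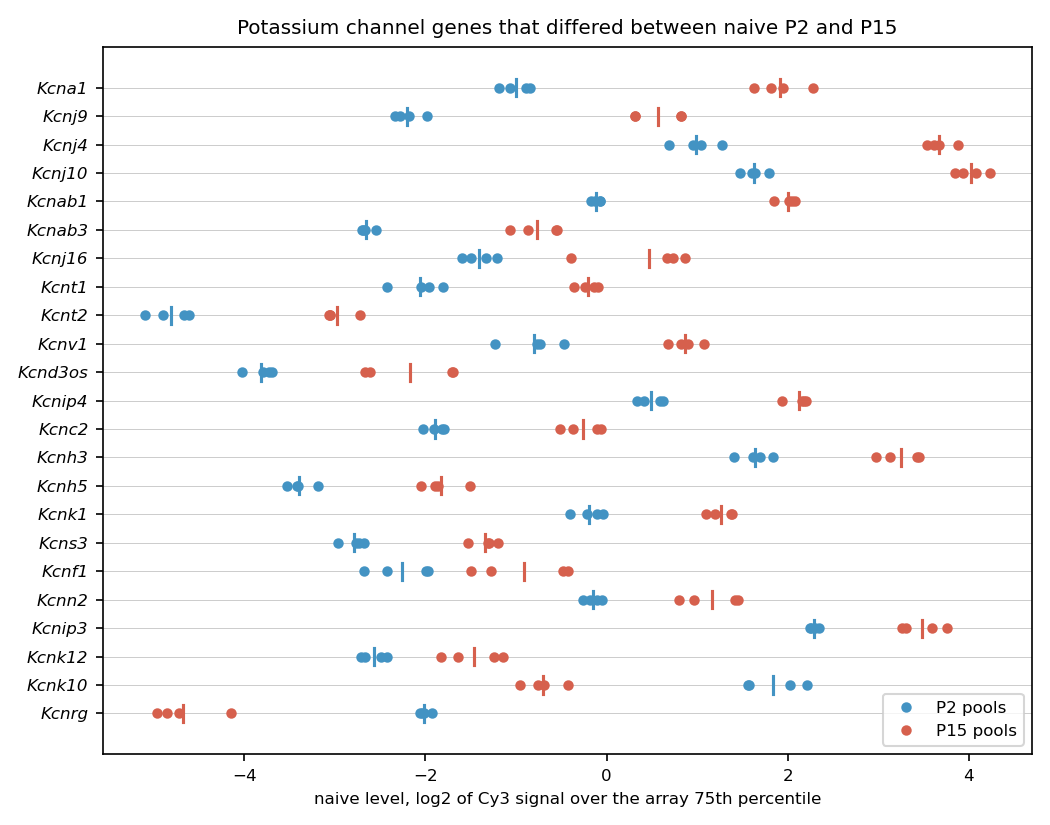
Naive level (log2 Cy3 signal relative to the array's 75th percentile) in each of the 4 pools at P2 and at P15, for the 23 potassium channel genes over the signal minimum that were called between these ages. Points are pools, and Kcnrg and Kcnk10 are the ones with lower levels at P15.

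One gene per class is given as a description of the 4 ages, taken as the one with the brightest naive probe, which is a rule of choice and not a comparison of expression between genes. Kcna6, a voltage-gated pore subunit, stood at 3.36, 3.49, 2.60 and 3.78 at P2, P5, P10 and P15. Kcnma1, the large calcium-activated channel, stood at 1.03, 0.85, -1.11 and 1.05, and Kcnmb4, its neuronal auxiliary subunit, at 3.31, 3.44, 3.46 and 4.18. The Kcnma1 probes differed. From P5 to P10 the brightest probe and another fell, by -1.96 and -1.98, while the remaining one did not (0.17, limma, adjusted p = 0.19). The inward rectifier Kcnj10 stood at 1.63, 2.47, 2.57 and 4.02, and the two-pore channel Kcnk10 at 1.84, 1.57, -0.38 and -0.70. The silent Kcnv1 stood at -0.80, -0.49, 0.32 and 0.87, rising throughout, and the non-coding Kcnq1ot1 at -3.63, -1.17, -1.59 and -3.10. Kcnq1ot1 was not called between P2 and P15 (0.54, limma, adjusted p = 0.36) or between P5 and P10 (-0.43, limma, adjusted p = 0.14). Its higher values at P5 and P10 were read on other slides than P2 and P15, so that age and slide cannot be told apart. The P10 mean lay outside the range of the P2, P5 and P15 means for 36 of 65 potassium channel genes (55.4%) and for 73.1% of all genes, and the P5 mean did so for 15.4 and 20.8%. Between P5 and P10, 8 potassium channel genes were higher and 12 lower of 66 tested, beside 20.4 and 20.1% of all genes. For the P5 and P10 levels, age and slide cannot be told apart.

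Genes that were lower after HI at P5 12 h were often genes that rose with age. Of the 9 lower genes, 6 (Kcna1, Kcnv1, Kcnh5, Kcnh3, Kcnab1 and Kcns3) rose from P2 to P15, or 66.7%, against 86 of 237 lower genes of the whole array, or 36.3%. Kcnb2, Kcng1 and Kcnip2 made up the rest, with differences of -0.78, 0.11 and 1.05 that were not called. At P10, 3 of 10 lower genes rose with age, or 30%, against 16.9% of all lower genes. Potassium channel genes rose with age more often than all genes whatever their response to HI. Of the 66 tested for age, 21 (31.8%) rose, beside 12.1% of all genes, so the P10 share lay near that of the potassium channel genes as a whole. With normexp and quantile normalization the age calls of Kcnh5 and Kcns3 were lost, at 0.62 and 0.60. No test was made of these shares.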

How the data were processed

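Total RNA of pooled forebrain hemispheres was hybridised to two-colour Agilent mouse arrays. Per the file headers, the authors made the deposited processed intensities with Agilent Feature Extraction 10.5.1.1, which subtracts background and applies a Lowess dye correction within each array. The deposited series table holds log10 ratios of red over green, identical to the scanner's own for HI pools and within 0.00499 of it for naive pools. Gene names came from RefSeq accessions.

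From these files, log2 ratios of Cy5 over Cy3 intensity were fitted with limma 3.58.1 (R 4.3.3) on all 24 HI arrays with 1 coefficient per group, and tables were made with Python 3.11.15, pandas 2.3.3, numpy 2.4.6 and matplotlib 3.10.9. Spots of one probe were averaged and control spots were left out. A probe was tested in a group when its mean intensity reached 100 in 1 dye and at least 2 arrays gave a ratio. Naive levels used the Cy3 intensity of all 32 arrays over each array's 75th percentile. limma was used in place of the t-test against 0 of the study's methods, which has few degrees of freedom with 3 arrays. The number of arrays limits the precision.

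The potassium channel genes and the gene lists were chosen with earlier results of these data known. The genes named were those called at P5, at most 8 per direction in each P10 group, those called for an age difference, the 10 steepest per direction between P2 and P15, and the genes of the lists. The P2 and P15 pools with the same number correlated in their deviations (0.281, 0.216, 0.161 and 0.369), each over 0.1, on slides they share. Scripts were tested on simulated data. Alternatives covered the signal filter, background correction, dye bias, blocks, the test and leaving out each array. A few genes are counted in the totals but not reported here by name.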

Additional observations from a re-analysis of the deposited data

Results flagged for a closer look

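In 3 genes 1 of the 4 naive P15 pools lay apart from the other pools. For Kcnt2 the pools stood at -2.72, -3.05, -3.06 and -3.05, the gap of pool 1 taking up 0.975 of the range. For Kcnip4 they stood at 2.20, 2.16, 1.94 and 2.18, with a gap of 0.842 of the range for pool 3. For Kcnj16 they stood at -0.39, 0.67, 0.74 and 0.87, with a gap of 0.841 for pool 1. These were 3 of 48 groups of pools examined, and chance flags about 1 in 20. Kcng1 differed between the ages in its response 12 h after HI, by 0.98 on the log2 scale (P10 minus P5, limma, adjusted p = 0.039), being lower on all 3 arrays at P5 and between -0.04 and 0.58 at P10.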

How the results depend on the processing

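No direction of a called gene reversed under any setting tried, which was likely from the start, since calls are chosen for their size. The counts of called genes at P5 3, 6, 12 and 24 h (1, 3, 10 and 1) and P10 3, 6, 12 and 24 h (3, 9, 9 and 3) changed under several settings. With no signal filter they were 4, 6 and 0 at P5 3, 6 and 24 h and 9, 20, 14 and 13 at P10. With probes well above background they were 4, 6 and 0 at P5 3, 6 and 24 h and 6, 15 and 11 at P10 3, 6 and 24 h. With each group fitted alone they were 2 at P5 3 h, 2 at P10 12 h and 0 at P10 24 h. With the dye bias taken out they were 6 and 0 at P5 12 and 24 h and 5 and 6 at P10 3 and 24 h. With normexp and loess they were 0, 3 and 0 at P5 6, 12 and 24 h and 1, 3, 3 and 0 at P10. The methods' t-test called 0 genes in all 8 groups after correction, and without it 2 and 1 at P5 3 and 6 h and 5, 3 and 1 at P10 6, 12 and 24 h. Leaving out 1 array gave 1 to 2, 2 to 5, 5 to 10 and 0 to 1 at P5 and 3 to 4, 9 to 10, 6 to 16 and 2 to 11 at P10. The series table and the brightest probe alone kept all 8 counts within 1.5 times. The causes were not tested.

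For the P10 minus P5 difference (0, 0, 1 and 0 at 3, 6, 12 and 24 h), no signal filter gave 0 and normexp and loess 2 at 12 h, the slide as a random block gave 1 at 6 h, and leaving out 1 array gave 0 to 0, 0 to 2, 0 to 2 and 0 to 2. Between P15 and P2 (24 genes), normexp and quantile normalization gave 15, and leaving out 1 array 22 to 25. Between P10 and P5 (20 genes), no signal filter gave 31 and normexp and quantile normalization 12.

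With the replicate number as a block, the difference calls were 2 at 6 h and 4 at 12 h, and the other 12 of 14 counts stayed within 1.5 times. HI replicate numbers share a slide within an age but do not pair P5 with P10 arrays, whose deviations correlated between -0.425 and 0.296, 3 of 12 pairs over 0.1. Dim probes limit the depth: 28 of the 95 genes gave no reading over the minimum.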
